A study of Mus musculus with 6 samples.

Results

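Genes of the ubiquitin and proteasome system were followed in liver RNA of 3 male mice, with 1 mouse in each of 3 groups given by diet and age. The restricted mouse, on caloric restriction, was 177 days old. The other mice were fed ad libitum and were 174 and 17 days old, and each liver was measured on an array of kind A and an array of kind B, which hold different spots. The genes were taken by symbol. They are the proteasome subunit genes (Psma to Psme with a number), the Ube2 genes of ubiquitin-conjugating enzymes and the numbered Usp genes of ubiquitin-specific proteases, among spots that the platform annotation gives 1 symbol. This gave 93 of 7151 named genes, carried by 152 of 9663 named spots, of which 85 were on array A and 67 on array B. There were 33 proteasome genes on 48 spots, 26 Ube2 genes on 45 spots and 34 Usp genes on 59 spots. All 33 proteasome genes are called subunit genes here. Among them Psmd5, Psmd9 and Psmd10 encode assembly chaperones, and Psme1 and Psme3 encode proteasome activators. The labels give no strain, no genotype and no degree of restriction, and age and diet cannot be told apart where the restricted mouse is set against the 17-day mouse.

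Proteins marked for destruction carry chains of ubiquitin. An E1 enzyme activates ubiquitin, an E2 enzyme of the Ube2 family accepts it and an E3 ligase directs it to the target, while deubiquitinases such as the Usp proteins remove it again. Tagged proteins are unfolded and cut by the proteasome, a barrel of alpha and beta rings with a regulatory cap of ATPase and non-ATPase subunits. In the liver this system removes damaged and short-lived proteins and works beside autophagy, which is known to be induced by fasting.

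With a single mouse per group there was no replicate and no test, and every difference describes these mice only. In whole liver, fewer cells of a type and less RNA per cell cannot be told apart. Median spot intensity, in arbitrary units, was 375 on array A and 332.8 on array B for the restricted mouse, against 35.8 and 60.8 for the 174-day mouse and 364.3 and 402.5 for the 17-day mouse, so arrays of a kind were put on a common scale by quantile normalization. Of the hepatocyte markers, Alb (albumin), Apoa1 (apolipoprotein A-I) and Ttr (transthyretin) each had 1 spot, and the dimmest of them, Ttr, lay at the 96.5th percentile of brightness of array A. No marker of Kupffer cells or lymphocytes had a named spot among 6 listed for each. Levels of spots with the same symbol were at most weakly related, and the cause was not tested. Over 1956 pairs of spots of 1 gene on the same array kind, log2 levels correlated across pairs with a Pearson r of 0.125, and over 963 genes with spots on both kinds r was 0.027. Pairs placed 44 spots apart gave 0.728 over 88 pairs, and pairs at any other distance 0.104 over 1868. Among the proteasome, Ube2 and Usp genes r was -0.079 over 45 pairs of spots. Members therefore stand here for spots with these names.

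A spot entered the gene values where its mean over the mice exceeded the median spot of that array kind (the 50th percentile), so that a high value in 1 mouse could let it in. This held for 68 of the 152 spots (44.7%, against 46.8% of all named spots) and 55 of the 93 genes, namely 19 proteasome, 14 Ube2 and 22 Usp genes. None of the 68 spots was at the floor set at the 5th percentile of an array, and none stood at least 1.5 log2 apart in 1 mouse only. The other 38 genes were Psma2, Psma5, Psma6, Psma7, Psmb2, Psmb3, Psmb7, Psmc2, Psmd1, Psmd3, Psmd5, Psmd6, Psmd12 and Psme3, then Ube2a, Ube2b, Ube2e2, Ube2e3, Ube2f, Ube2g1, Ube2n, Ube2o, Ube2q2, Ube2r2, Ube2t and Ube2v2, and Usp2, Usp5, Usp15, Usp16, Usp19, Usp21, Usp22, Usp33, Usp36, Usp46, Usp48 and Usp50. The catalytic subunits of the immunoproteasome, Psmb8 to Psmb10, had no named spot and so could not be analysed here.

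As a group these genes differed little between the mice. None of 55 was 2-fold apart between the 174-day and the 17-day ad libitum mouse, where 1.16% of all 3865 measured genes were (0.724% higher and 0.44% lower). In the restricted against the 174-day mouse 4 of 55 (7.27%) were 2-fold apart, against 6.86% of all genes, and in the restricted against the 17-day mouse none was, against 1.58% (0.466% higher and 1.11% lower). The shares of 2-fold genes thus lay near the background. None of the 4 genes remained 2-fold apart after a correction for spot position, described with the processing, where 1 other gene, Usp24, passed (-1.02) and 2.92% of all genes did. Each of the 4 also had an entering spot that read below the median spot of its array in at least 1 mouse. The median difference in the age comparison was 0.04 log2, against -0.03 over all genes, with 30 genes above 0 and 25 below. Against the 174-day mouse the restricted mouse had a median of -0.18, against -0.04, with 20 above and 35 below, which is 63.6% below 0 beside 52.7% of all genes. From array A alone that median was 0.05. Against the 17-day mouse its median was -0.15, against -0.09, with 65.5% below 0 beside 58.8%. Signed values from here on are log2 differences of normalized levels, the first-named mouse over the second, and what a spot read is its deposited intensity, given for the restricted, the 174-day and the 17-day mouse in this order. The age comparison is the 174-day over the 17-day mouse. The comparisons share mice, so these medians are not independent of each other.

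**Figure D1:**
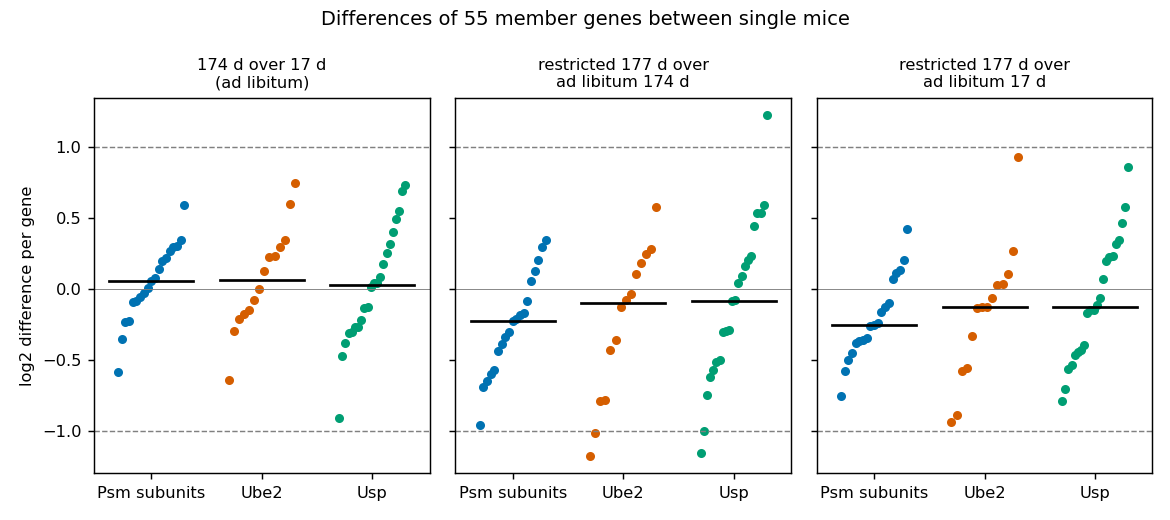
Each point is the log2 difference of 1 gene in 1 comparison, and points are spread sideways by rank. Black bars are medians and dashed lines mark 2-fold. The middle panel, restricted 177-day over ad libitum 174-day mouse, holds the 4 genes past 2-fold, and in it the subunit genes run from -0.96 to 0.34.

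The spread between the 3 mice was close to that of other genes. The range of the normalized level over the mice had a median of 0.45 log2 for the 55 genes and 0.46 for all genes. It was widest for Usp37 (1.22), Ube2k (1.17) and Usp27x (1.16), and narrowest for Usp30 (0.08), a deubiquitinase of mitochondria, and Ube2z (0.11). The restricted mouse had the lowest level of the 3 for 31 of 55 genes (56.4%, against 45.9% of all genes), among them 13 of 19 subunit genes, 8 of 14 Ube2 genes and 10 of 22 Usp genes. After the correction for spot position these counts were 29 of 55, 11 of 19, 6 of 14 and 12 of 22, against 39.8% of all genes.

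The proteasome subunit genes were on balance lower in the restricted mouse, by less than 2-fold each. Against the 174-day mouse their median stayed below 0 with median centring and loess, at -0.53 and -0.23, and was 2.68 without scaling, while the medians of all genes were -0.30, -0.05 and 2.57. With median centring Psmb5 (-1.33) and Psmd9 (-1.52) passed 2-fold. Against the 174-day mouse 14 of 19 were below 0 (52.7% of all genes), with a median of -0.23. Against the 17-day mouse 14 of 19 were as well (58.8% of all genes), with a median of -0.25. Between the 174-day and the 17-day mouse 11 of 19 were above 0 (1790 of 3865 over all genes), with a median of 0.06. With the correction for spot position the median against the 174-day mouse was -0.10, with 16 of 19 below 0 (49.4% of all genes), and against the 17-day mouse -0.17, with 12 of 19 below 0 (53.3% of all genes). On array B alone all 9 subunit genes were below 0 against the 174-day mouse, as were 56.4% of all genes there, whereas on array A alone 7 of 13 were, beside 48.6% of all genes. Markers of other cells differed as well against the 174-day mouse, at -0.72 for Epcam and 0.07 for Krt7 (bile duct), -0.14 for Pecam1 (endothelium) and 0.23 for Col1a1 and 0.33 for Pdgfrb (stellate cells), and the hepatocyte genes Alb, Apoa1 and Ttr were at 1.18, -0.01 and 0.26 (0.55, -0.32 and 0.63 after the correction for position). Their part in the subunit values was not tested.

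The lowest subunit gene in the restricted mouse was Psmb4, of the beta ring. Its spot read 395 for the restricted, 75.6 for the 174-day and 632 for the 17-day mouse. On the normalized scale it was lowest in the restricted mouse, at -0.96 against the 174-day and -0.76 against the 17-day mouse, and after the correction for position these were -0.25 and 0.02. Psmb5, the beta subunit with chymotrypsin-like activity, read 1604, 737 and 2651 in the same order of mice and was at -0.60 and -0.25, or -0.13 and -0.21 after the correction. Psmb1, a further subunit of that ring, read 1081, 85.8 and 1148 and went the other way against the 174-day mouse, at 0.34, with -0.59 in the age comparison. Psmb11, which in mice is known as the beta subunit of the thymus, had a spot at 1189, 117 and 958, with differences from 0.06 to 0.20. That spot was bright although the tissue is labelled liver.

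In the alpha ring, whose subunits gate the barrel, Psma1 read 2607 in the restricted, 400.02 in the 174-day and 3898 in the 17-day mouse. It was lower in both older mice than in the 17-day mouse, at -0.58 in the restricted and -0.35 in the ad libitum one. Psma4 differed by at most 0.20 log2 in the 3 comparisons. Psma3 had spots on both array kinds that did not match. Its array A spot read 1504, 110 and 726, which is 1.01 higher in the restricted than in the 17-day mouse, and its array B spot read 1107, 319 and 1564, which is -0.16.

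The ATPases of the cap, which unfold the substrate, were below 0 in the restricted mouse in both of its comparisons for all 3 measured genes. Over all genes 52.7% were below 0 against the 174-day and 58.8% against the 17-day mouse. Psmc1 was at -0.44 against the 174-day and -0.38 against the 17-day mouse, Psmc3 at -0.30 and -0.36, and Psmc5 at -0.69 and -0.10. The 2 spots of Psmc1, which lie 44 spots apart, read 1135 and 852 for the restricted mouse, 377 and 264 for the 174-day mouse and 1876 and 1342 for the 17-day mouse. They gave -0.42 and -0.46 against the 174-day mouse and -0.38 each against the 17-day mouse, which was the closest match of any subunit gene with 2 spots past the filter. The spots of Psmc3, farther apart, gave 0.16 and -0.76 against the 174-day mouse, and the gene was at -0.12 there after the correction for position. For Psmc5 the measured spot and a dim neighbour 44 spots away gave -0.69 and -0.75, and another dim spot elsewhere gave 0.08. After the correction for position Psmc5 was at -0.36 against the 174-day and 0.13 against the 17-day mouse.

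The non-ATPase subunits of the cap were below 0 for 5 of 6 genes against the 174-day mouse (52.7% of all genes) and for 5 of 6 against the 17-day mouse (58.8%). Psmd2, a scaffold of the cap, was at -0.65 and -0.34, Psmd14, its deubiquitinase, at -0.57 and -0.50, Psmd8 at -0.34 and -0.37, Psmd11 at -0.21 and -0.45 and Psmd4, a ubiquitin receptor, at -0.18 and -0.26. Psmd7 stood above 0, at 0.30 and 0.07, but its array A spot read 1137 in the restricted, 60.01 in the 174-day and 706 in the 17-day mouse, and its array B spot 919, 259 and 1579. These gave 0.89 and -0.30 against the 174-day mouse, so the direction of Psmd7 depended on the array. The position-corrected values against the 174-day mouse were -0.45 for Psmd2, -0.07 for Psmd14, -0.01 for Psmd8, -0.56 for Psmd11, -0.07 for Psmd4 and -0.15 for Psmd7, which turned its direction. A dim spot of Psmd2 read 177 in the restricted, 61.4 in the 174-day and 192 in the 17-day mouse and was at -1.84 against the 174-day mouse, and it did not enter. The assembly chaperones Psmd9 and Psmd10 were at -0.39 and -0.08 against the 174-day mouse and at -0.13 and 0.13 against the 17-day mouse, and after the correction at -0.12 and -0.02 against the 174-day mouse. Psme1, of the PA28 activator, was at -0.17 and -0.16, from an array A spot at 0.38 and an array B spot at -0.71 against the 174-day mouse.

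**Figure D2:**
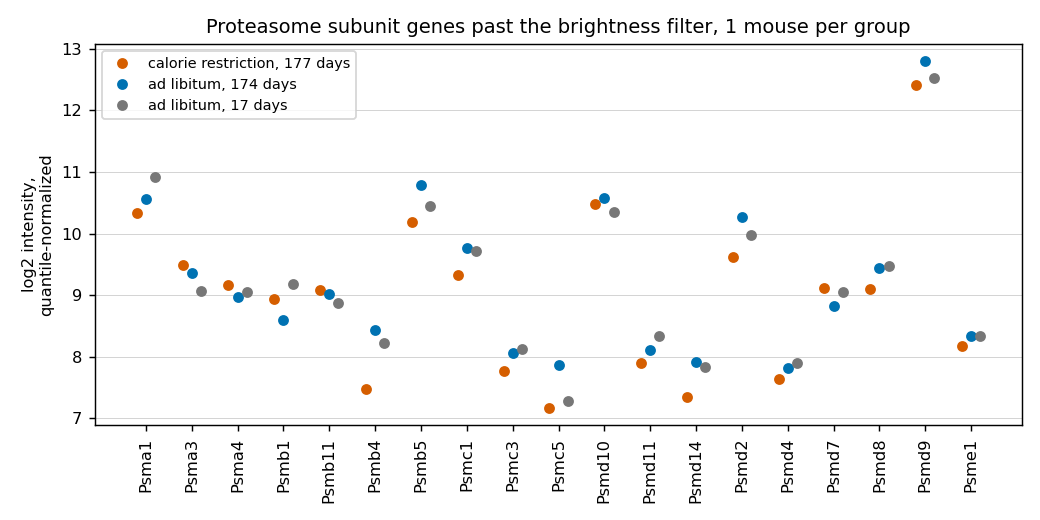
Normalized log2 intensity of the 19 proteasome subunit genes past the brightness filter in the 3 mice, with 1 point per mouse. Levels of different genes come from different spots and are not comparable. Within a gene the restricted mouse is lowest for 13 of 19.

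The promoters of 3 of the 5 subunit genes that were lowest in the restricted against the 174-day mouse are shown, from RefSeq on the build GRCm38.p6, as 250 bases before to 50 after the annotated start. This ranking used values before the correction for position. After it Psmb4 was at -0.25, Psmb5 at -0.13 and Psmd14 at -0.07, and Psmd11 (-0.56) and Psmc1 (-0.48) were lowest. CCAAT is the site of NF-Y, and TGACNNNGC is the core of the antioxidant response element through which Nfe2l1 is known to drive subunit genes. Both were searched on both strands, and capitals mark the matches. Psmb4 lies on chromosome 3, chr3:94886909-94887208, minus strand, and has no match. Psmb5, at chr14:54617946-54618245 on the minus strand, has 1 match to TGACNNNGC. Psmd14, at chr2:61711444-61711743 on the plus strand, has 3 matches to CCAAT, of which 2 overlap each other on opposite strands.
Psmb4: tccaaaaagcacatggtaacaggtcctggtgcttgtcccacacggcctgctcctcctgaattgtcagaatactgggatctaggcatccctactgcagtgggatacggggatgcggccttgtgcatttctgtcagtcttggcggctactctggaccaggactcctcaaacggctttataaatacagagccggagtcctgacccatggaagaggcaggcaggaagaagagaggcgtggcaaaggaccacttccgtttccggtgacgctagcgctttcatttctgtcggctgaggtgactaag
Psmb5: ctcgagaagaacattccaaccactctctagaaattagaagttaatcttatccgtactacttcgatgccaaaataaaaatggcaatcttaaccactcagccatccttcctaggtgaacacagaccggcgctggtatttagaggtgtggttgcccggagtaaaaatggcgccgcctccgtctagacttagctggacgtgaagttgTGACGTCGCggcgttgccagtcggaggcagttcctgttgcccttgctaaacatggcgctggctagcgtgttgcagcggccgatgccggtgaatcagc
Psmd14: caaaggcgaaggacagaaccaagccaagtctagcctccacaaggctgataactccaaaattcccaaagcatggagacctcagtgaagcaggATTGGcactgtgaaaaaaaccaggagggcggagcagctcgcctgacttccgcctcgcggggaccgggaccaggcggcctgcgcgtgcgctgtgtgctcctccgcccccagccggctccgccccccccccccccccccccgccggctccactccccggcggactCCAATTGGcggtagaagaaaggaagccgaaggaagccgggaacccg
Psmc5 and Psmd2, the other genes of the 5, had no match to either. Of the 33 subunit genes 27 had a promoter in the table. CCAAT was in 13 of these (48.1%), against 41.1% of 27025 genes with a promoter there, and TGACNNNGC in 3 (11.1%), against 14.0%. For Ube2 genes the shares were 28.6% and 23.8% of 21, and for Usp genes 15.4% and 23.1% of 26. A gene counted where any of its promoters had a match, and the sets differ in promoters per gene. There were 29 promoters for the 27 subunit genes, 30 for the Ube2 genes, 26 for the Usp genes and 32851 for the 27025 genes. A match is a stretch of letters and says nothing of binding in these livers.

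Among the E2 enzymes, the values scattered on both sides of 0. The median was 0.06 between the 174-day and the 17-day mouse (7 of 14 above 0), -0.10 in the restricted against the 174-day mouse (5 above, 9 below) and -0.13 against the 17-day mouse (5 above, 9 below). In these comparisons 53.5%, 52.7% and 58.8% of all genes were below 0. Ube2k, which builds chains linked through lysine 48, and Ube2j2, an E2 of the endoplasmic reticulum, were the 2 genes past 2-fold, both lower in the restricted than in the 174-day mouse, at -1.17 and -1.01. Over all genes 4.61% were at least 2-fold lower there. Ube2k entered with a spot on each array kind, which read 229 and 1038 for the restricted mouse, 73.9 and 401 for the 174-day mouse and 368 and 1733 for the 17-day mouse. They differed by -1.71 and -0.63, both lower in the restricted mouse, and for a dim spot, whose 174-day reading of 2.83 lay under the floor, only a higher level in the restricted mouse can be given. After the correction for position Ube2k was at -0.85, from -1.67 on array A and -0.03 on array B. The spot of Ube2j2 read 281, 109 and 625 in the restricted, 174-day and 17-day mouse, and was at -0.61 after the correction. A dim array A spot of Ube2j2 was at 0.73, and the gene's value is -0.14 when that spot is included.

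Next lowest against the 174-day mouse were Ube2d2a (-0.79), of the broadly active Ube2d group, and Ube2g2 (-0.78), an E2 of endoplasmic reticulum-associated degradation. The highest were Ube2s (0.58), which extends chains for the anaphase-promoting complex, Ube2d3 (0.28), Ube2l3 (0.24) and Ube2h (0.18). Ube2d3 rested on spots at 1.09 and -0.52, and was at -0.31 with its dim spot included. Ube2l3 rested on spots at 0.54 and -0.05, and was at -0.38 after the correction for position. Ube2d2a and Ube2d3 encode near-identical enzymes, so their spots could hold RNA of both. In the age comparison the highest were Ube2h (0.75), known for its high level in developing red cells, Ube2k (0.60), Ube2c (0.35) and Ube2e1 (0.30), and the lowest Ube2s (-0.64), Ube2q1 (-0.30), Ube2l3 (-0.21) and Ube2d3 (-0.17). The restricted mouse set against the 17-day mouse had Ube2h (0.93), Ube2c (0.27), Ube2d3 (0.11) and Ube2z (0.03) highest, and Ube2d2a (-0.94), Ube2j2 (-0.89), Ube2k (-0.58) and Ube2g2 (-0.55) lowest. Corrected for position, Ube2g2 was at -0.25 and Ube2s at 0.26 against the 174-day mouse, and Ube2d2a at -0.30 and Ube2j2 at -0.39 against the 17-day mouse. The correction turned Ube2l3 to 0.13 in the age comparison and Ube2d3 to -0.15 against the 17-day mouse.

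Ube2h was thus higher in both older mice than in the 17-day mouse. Its single spot read 489.6 in the restricted, 40.4 in the 174-day and 245 in the 17-day mouse, and the restricted and the 174-day mouse were 0.72 and 0.56 above the 17-day mouse after the correction for position. Of the erythroid markers, Hba-a1 was at -0.26 and Hba-a2 at 0.27 in the restricted against the 17-day mouse, and at -0.18 and 0.12 in the age comparison. After the correction they were at -0.27 and -0.13 against the 17-day mouse, and at -0.09 and 0.16 in the age comparison. Whether red cells had a part in the Ube2h values was not tested. Ube2c, which acts in mitosis, read 1879.9, 239 and 1444. Ube2v1, a variant that lacks the catalytic cysteine, was at -0.36 against the 174-day mouse, -0.13 against the 17-day mouse and 0.23 in the age comparison. Of the remaining entering genes, Ube2j1, Ube2q1 and Ube2z were within 0.13 log2 against the 174-day mouse, and the 2 spots of Ube2e1 gave 0.18 and -1.03 there.

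The Usp genes had medians of 0.03 in the age comparison, -0.08 in the restricted against the 174-day mouse and -0.13 against the 17-day mouse, with 10, 12 and 13 of 22 below 0. These are 45.5%, 54.5% and 59.1%, beside 53.5%, 52.7% and 58.8% of all genes. Usp37, a cell cycle deubiquitinase, was the highest of all 55 genes in the restricted against the 174-day mouse (1.22) and the lowest in the age comparison (-0.91). Over all genes 2.25% were at least 2-fold higher in the restricted mouse. Its array A spot read 546 in the restricted, 22.3 in the 174-day and 422 in the 17-day mouse, so that the 174-day mouse stood low in both comparisons. Its dim array B spot went the same ways, at 0.65 and -0.48. After the correction for position Usp37 was at 0.91 and -0.97, and the array B spot at -0.25 against the 174-day mouse. Usp27x, an X-linked relative of Usp22, was past 2-fold on the lower side (-1.16), from a spot at 265, 114 and 442, and was at -0.62 after the correction. Usp28 lay just inside 2-fold at -0.997, from a spot at 378, 153 and 629.8.

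Usp8, which acts on endosomes, and Usp3, of histones, followed at -0.75 and -0.62 against the 174-day mouse. The next highest were Usp40 (0.59), Usp1 (0.54), of DNA repair, and Usp32 (0.53). With the position correction Usp3 was at -0.21, Usp40 at 0.22 and Usp32 at 0.20. A dim array A spot of Usp3, whose 174-day reading of 4.03 lay under the floor, was higher in the restricted than in the 174-day mouse. With that spot included the value of Usp3 there was 0.08. Between the 174-day and the 17-day mouse Usp24 (0.73), Usp27x (0.69), Usp28 (0.55) and Usp45 (0.49) were highest and Usp7 (-0.47), which stabilises Mdm2, Usp42 (-0.38) and Usp34 (-0.31) lowest after Usp37. Corrected for position, the highest were at 0.95, 0.28, 0.34 and 0.51 and the lowest at -0.40, -0.19 and -0.19, in the same order. The 0.73 of Usp24 came from spots at 1.502 and -0.04. The spots of Usp10 gave -0.43 and -0.14 against the 174-day mouse, and those of Usp42 gave -0.10 and 0.56. The restricted mouse had Usp1 (0.85), Usp32 (0.58), Usp40 (0.47) and Usp53 (0.34) highest against the 17-day mouse and Usp29 (-0.78), Usp8 (-0.70), Usp25 (-0.56) and Usp3 (-0.53) lowest.

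Usp1 was 1 of 5 genes with entering spots on both array kinds. Before the correction for position, Usp1 and Ube2k kept their direction on both kinds in all 3 comparisons. Its array A spot read 1366 in the restricted, 77.2 in the 174-day and 528.02 in the 17-day mouse, and its array B spot 406, 64.3 and 385. Against the 17-day mouse these gave 1.33 and 0.38, and against the 174-day mouse 0.83 and 0.24. The restricted mouse was highest on both before the correction. After it the array B spot of Usp1 was at -0.09 against the 174-day and -0.07 against the 17-day mouse, with array A at 0.88 and 1.02. In the age comparison Ube2k was then at -0.18 on array B and 1.03 on array A. Psma3, Psmd7 and Psme1, the remaining genes on both kinds, changed direction between the arrays in both comparisons of the restricted mouse.

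Agreement between spots of 1 gene was low for these genes and for all genes. Of 13 members with 2 entering spots, 8 had both in the same direction in the age comparison, 5 in the restricted against the 174-day mouse and 4 against the 17-day mouse, while over 557 genes with several entering spots the shares were 50.1%, 49.7% and 48.7%. Without the brightness filter 25 members had 2 spots, of which 15, 9 and 13 matched in direction, and 49.96%, 48.95% and 49.2% of 1383 such genes did. The SD between spots of 1 gene over all genes was 0.45, 0.58 and 0.40 log2 in the 3 comparisons. Over the 13 members it was 0.40, 0.66 and 0.57. Pairs of spots of 1 gene that lay 44 spots apart had the same direction over all genes in 58.0%, 64.8% and 71.6% of 88 pairs, against 48.4%, 49.2% and 49.3% of 1868 other pairs, a difference that was not tested.

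**Figure D3:**
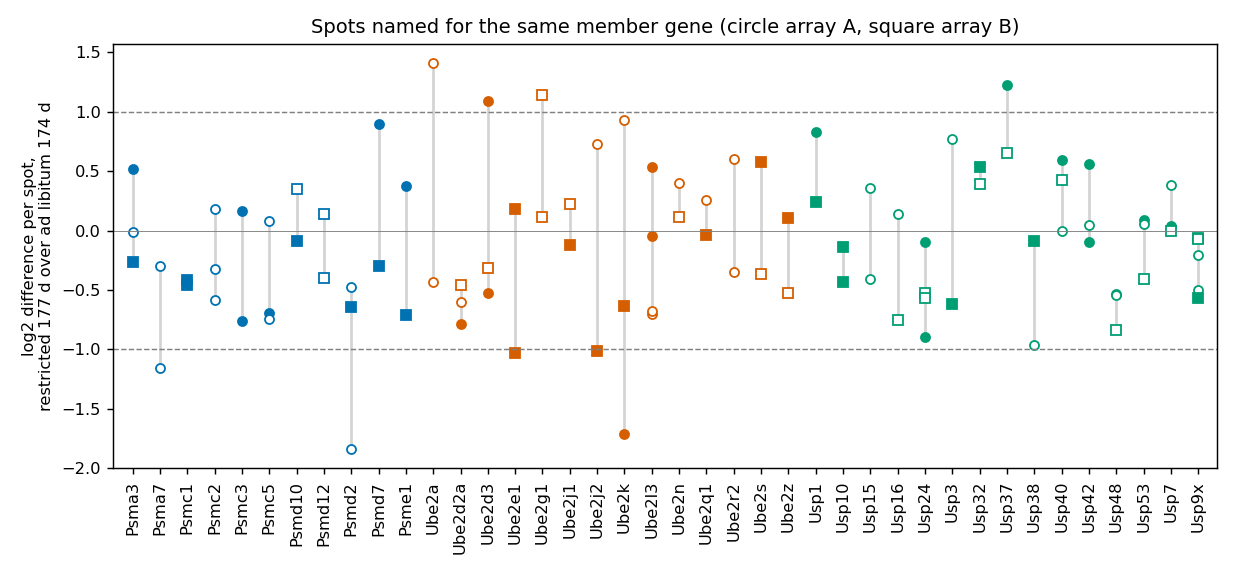
Log2 difference of the restricted 177-day over the ad libitum 174-day mouse for every spot of the 40 genes with several spots (proteasome blue, Ube2 orange, Usp green). Filled symbols passed the brightness filter, and grey lines join spots of 1 gene. For 14 of the 40 genes all spots lie on the same side of 0.

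The 38 genes without an entering spot are dim, and 3 member spots, of Usp7, Usp22 and Usp40, were at the floor in all mice and carry no difference. A further 7 were at the floor in some mice. Over the 38 genes the median difference was -0.02 in the age comparison, 0.01 in the restricted against the 174-day mouse and 0.01 against the 17-day mouse. The widest were those of Ube2t, an E2 of the Fanconi anaemia pathway, at -1.37 in the age comparison and 1.75 in the restricted against the 174-day mouse, from a spot at 333, 17.6 and 312. Ube2f, an E2 for NEDD8, was at 1.08 in the age comparison and Usp21 at 1.12 in the restricted against the 174-day mouse, where its 174-day spot lay at the floor.

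Other genes of the pathway were taken from lists of names. Of 16 proteasome assembly and regulation genes listed, 10 were measured. They were above 0 in the age comparison for 9 of 10 (median 0.28) and below 0 in the restricted against the 174-day mouse for 8 of 10 (median -0.45). They were below 0 against the 17-day mouse for 8 of 10 as well (median -0.19). Over all genes 1790 of 3865 were above 0 with age, and 52.7% and 58.8% were below 0 in the comparisons of the restricted mouse with the 174-day and the 17-day mouse. None was 2-fold apart. Against the 174-day mouse the lowest was Ecpas (-0.97), which tethers proteasomes, and the highest Sem1 (0.14), a small subunit of the cap. The assembly chaperones Psmg3 (-0.90), Psmg4 (-0.53) and Pomp (-0.43) and the transcription factor Nfe2l1 (-0.60) were also below 0. Corrected for position, Psmg4 turned to 0.38, and Psmg3 was at -0.64, Pomp at -0.31, Nfe2l1 at -0.21 and Ecpas at -0.26. Ubfd1 (0.45) and Txnl1 (-0.16) were the extremes of the age comparison, and Nfe2l2 (0.30) and Psmg3 (-0.69) those against the 17-day mouse. The position-corrected medians were 0.17, -0.28 and -0.14. The 2 comparisons with opposite signs share the 174-day mouse.

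Shuttle factors and Vcp had medians of 0.14, -0.07 and -0.04 over 11 genes in the age comparison, the restricted against the 174-day and the restricted against the 17-day mouse. Ubxn1, a cofactor of Vcp, was the only one past 2-fold (-1.35 against the 174-day mouse), and was at -0.53 after the correction for position, while Vcp itself, the segregase that extracts tagged proteins, was at 0.01. Ubxn1 was also the highest with age (0.63, lowest Nploc4 at -0.15) and the lowest against the 17-day mouse (-0.72), and Ufd1, a partner of Vcp, was highest in both comparisons of the restricted mouse (0.24 and 0.47). The list of other deubiquitinases also held Senp5 and Senp6, which act on SUMO, and Cops5, which acts on NEDD8. Its medians were -0.08, -0.03 and -0.01 over 15 genes. Its genes ran from Zup1 (-0.76) to Mindy1 (0.52) against the 174-day mouse and from Uchl1 (-0.41) to Zup1 (0.52) with age. Against the 17-day mouse they ran from Bap1 (-0.64) to Otud6b (0.46). Corrected for position, Zup1 and Mindy1 were at -0.67 and -0.16 against the 174-day mouse. Uchl1 and Zup1 were then at -0.17 and 0.38 with age, and Bap1 and Otud6b at -0.10 and 0.22 against the 17-day mouse. Of the E1 enzymes Atg7, which serves autophagy, was at -0.98 and Uba3, of the NEDD8 pathway, at 0.42 against the 174-day mouse (-0.34 and 0.52 after the correction for position), at -0.71 and 0.26 against the 17-day mouse and at 0.26 and -0.16 with age. Of the ubiquitin-like genes Nedd8 was at -0.01, Sumo2 at 0.02 and Fau at 0.13 against the 174-day mouse, and Sumo2 was lowest and Nedd8 highest against the 17-day mouse (-0.36 and 0.15) and with age (-0.39 and 0.16). The correction for position turned Sumo2 to 0.26 against the 17-day mouse, with Nedd8 at 0.04. Sumo2 was then at 0.57 and Nedd8 at -0.14 against the 174-day mouse, and at -0.31 and 0.18 with age.

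**Figure D4:**
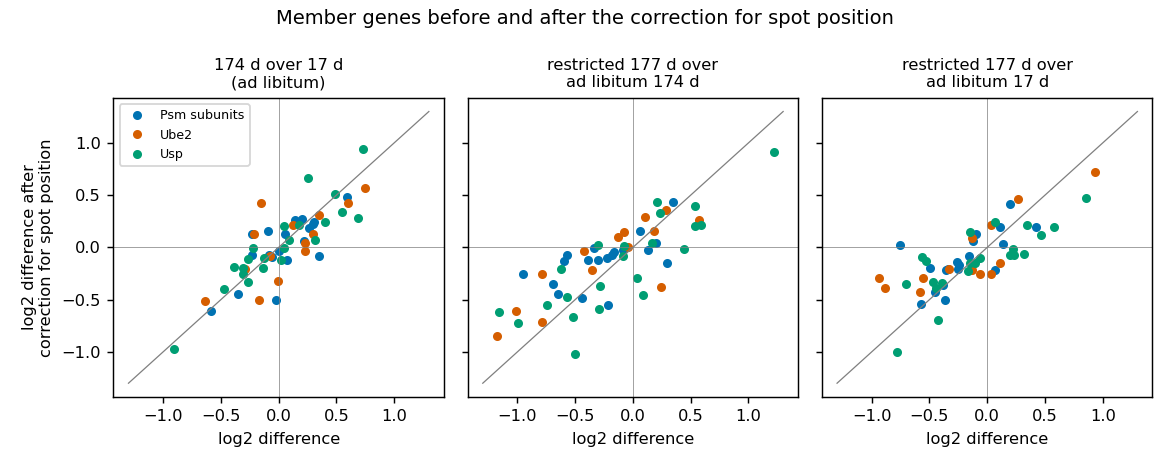
Log2 difference per gene before (horizontal) and after (vertical) the correction for spot position in each comparison, with the line of equality. Of 55 genes, 45 keep their sign in the age comparison, 44 in the restricted against the 174-day mouse and 43 in the restricted against the 17-day mouse.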

How the data were processed

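Liver RNA of 3 mice was measured on 2 array kinds. The authors deposited 1 value per spot, read here as spot intensity on a linear scale because the values are positive, right-skewed and differ several-fold in median between arrays. How the authors made these intensities, including background treatment and scaling, is not given in the sources used here. Spots were named through the platform annotation: of 16896 spots 9663 had 1 symbol, 436 several and 6797 none, and 9641 named spots matched RefSeq (GRCm38.p6), with 0 symbols changed. Every value column has a mouse (0 left over).

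Values under an array's 5th percentile were set to it. The log2 intensities of the 3 arrays of a kind were then quantile-normalized. Gene values are medians of the differences of entering spots on both kinds (3865 genes). The call was a log2 difference of at least 1 (2-fold). To correct for position, a spot's deviation from its mean over the mice was centred on the median within 16 runs of neighbouring spot numbers, and then across runs at equal offsets. This layout was inferred from spot numbers.

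The members and lists were chosen with earlier results of these data known. Named were all measured subunit genes, the 4 highest and 4 lowest Ube2 and Usp genes per comparison, genes with several entering spots, genes past 2-fold and the extremes of each pathway list. Usp30, Ube2v1, Ube2j1, the named assembly genes other than extremes, the dim genes named and the checks on spots 44 apart and on levels were picked with their values in view. Simulated data were used to test the procedure. Python 3.11.15, numpy 2.4.6, pandas 2.3.3, statsmodels 0.14.6 and matplotlib 3.10.9 were used.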

Additional observations from a re-analysis of the deposited data

How the results depend on the processing

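No group had a replicate, so no sample could be left out. A median was taken as shifted where it moved by more than the spread expected from the SD between spots of 1 gene. Median centring moved the median of all genes to 0.20 in the age comparison and -0.30 in the restricted against the 174-day mouse. Under it the members had medians of 0.28 and -0.39, the subunit genes 0.28 and -0.53, and 1 member was 2-fold higher and 12 lower in the restricted than in the 174-day mouse (1 and 3 in the reported setting), while over all genes 51 were higher and 608 lower (87 and 178). Without scaling, where the 174-day arrays are several-fold dimmer, medians were -2.79 for members and -2.95 for subunits with age (all 55 members lower), 2.62 and 2.68 in the restricted against the 174-day mouse (55 higher, 0 lower) and -0.41 for both against the 17-day mouse (2 lower). Over all 3865 genes 3853 were lower with age, 3824 higher against the 174-day mouse and 119 lower against the 17-day mouse without scaling. Ube2j2 (1.37), Ube2k (1.501) and Usp27x (1.22) then reversed. With loess 5 members were 2-fold lower against the 174-day mouse, as were 208 of all 3865 genes. Without the brightness filter, over 93 genes, 1 was higher and 1 lower with age, 2 higher and 1 lower against the 174-day mouse, and the median against the 17-day mouse was -0.063. Of all genes 3.22% were then 2-fold apart with age and 7.44% against the 174-day mouse. Among the top 25% of spots by level, with 27 members left, 0 were 2-fold apart against the 174-day mouse, where 4.57% of all genes were. Member medians were -0.30 against the 174-day and -0.25 against the 17-day mouse. With the brightest spot per gene 1 member was higher against the 17-day mouse, as were 24 of all 3865 genes. On array A alone medians were -0.042 with age, 0.049 against the 174-day mouse and -0.017 against the 17-day mouse (subunits -0.13), with 1 lower against the 174-day and 2 higher against the 17-day mouse. Of all 2022 genes on array A 105 were lower against the 174-day and 20 higher against the 17-day mouse. On array B alone medians were -0.30 in both comparisons of the restricted mouse, with 0 higher against the 174-day mouse, where 50 of 2106 genes were. After the position correction 0 members were higher and 1 (Usp24, -1.02) lower against the 174-day mouse, and 1 (Usp29, -1.004) lower against the 17-day mouse. Over all 3865 genes 35 were then higher and 78 lower against the 174-day mouse, and 35 lower against the 17-day mouse. At 1.5-fold 5 were higher and 3 lower with age, 2 and 12 against the 174-day mouse and 2 and 5 against the 17-day mouse, where 8.62%, 28.5% and 15.4% of all genes passed. Of 165 single-gene values, 113 shifted and 3 reversed without scaling, 14 shifted under median centring, 11 without the brightness filter and 9 after the position correction. The cause of these shifts was not tested. A floor at the 25th percentile, and leaving out spots of exactly 10 or spots apart in 1 mouse only, left every count and median of the members as reported. Dim spots limit precision, since the 174-day arrays had floors of 5.98 and 7.04.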

Other observations

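Spots that carry several symbols were not named and so not counted among the members, although 7 such spots hold a Psm or Usp symbol. They were 3 spots for Thoc1 and Usp14, 2 for Gm3960 and Usp47, 1 for Sirt3 and Psmd13 and 1 for Usp49 and Med20.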
